A study of Homo sapiens with 6 samples.

Results

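The genes described here are 9 components of Hedgehog signalling, namely the receptor PTCH1, the signal transducer SMO, the decoy receptor HHIP, the co-receptors BOC, CDON and GAS1, and the transcription factors GLI1, GLI2 and GLI3. They were taken by name from a deposited table of read counts, and all 9 were found among its 59653 gene symbols. The table covers 6 mRNA sequencing libraries of PA1, an established cell line from a human ovarian teratocarcinoma, labelled as wildtype. In 3 libraries the cells had been transfected with control siRNA and in the other 3 with siRNA against SOX2, a transcription factor of pluripotent and neural progenitor cells; 2 SOX2 siRNAs are named, and whether they were pooled is not given in the sources used here. Cells of both groups grew attached for 24 h after transfection and then for 72 h on plates coated with poly-HEMA, which prevents attachment. PA1 is 1 cell line, and nothing in the labels says whether the libraries of a group came from separate cultures, so p-values measure the spread between these libraries, which may be technical. The labels name no batch or date.

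Hedgehog ligands bind the membrane protein PTCH1, with BOC, CDON and GAS1 as co-receptors. Unbound PTCH1 keeps SMO inactive; ligand binding releases SMO, which acts at the primary cilium so that the GLI proteins turn on target genes. GLI1 is an activator, GLI3 mostly a repressor and GLI2 mostly an activator. PTCH1, GLI1 and HHIP are themselves target genes of the pathway, and PTCH1 and HHIP restrain it, while BOC, CDON and GAS1 are genes that Hedgehog signalling lowers in several embryonic tissues. In the embryo the pathway patterns the neural tube and somites, where SOX2-expressing neural progenitors are among the responding cells.

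Promoter windows are shown for the 3 genes on which most of the results turn, PTCH1 as receptor and target gene and BOC and CDON as the co-receptors that moved in opposite directions. Each window runs from 250 bases before to 50 bases after a transcription start in RefSeq (GRCh38.p14), and 7 of the 9 genes had 15 such windows. GLI1 and GLI3 had none. PTCH1 has 5 of these windows, BOC 2 and CDON 3; for PTCH1 and BOC the window shown is the only one with a match to a motif searched below, chosen for that match, and for CDON, where no window has one, it is the window nearest the annotated gene start. The PTCH1 window shown belongs to a start site 7791 bases inside the GENCODE 29 gene start. Both strands were searched for GACCACCCA, the letters bound by GLI proteins, and for ACAAAG and AACAAT, short forms of the SOX recognition sequence; capitals mark a match on either strand. The PTCH1 window lies on the minus strand at chr9:95509217-95509516, the BOC window on the plus strand at chr3:113211307-113211606 and the CDON window on the minus strand at chr11:126063252-126063551.
PTCH1: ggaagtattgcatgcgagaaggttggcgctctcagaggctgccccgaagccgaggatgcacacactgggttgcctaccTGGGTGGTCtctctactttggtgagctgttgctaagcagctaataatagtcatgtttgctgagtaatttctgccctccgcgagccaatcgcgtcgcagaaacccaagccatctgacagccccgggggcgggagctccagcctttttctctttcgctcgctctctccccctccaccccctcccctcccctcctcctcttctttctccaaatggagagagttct
BOC: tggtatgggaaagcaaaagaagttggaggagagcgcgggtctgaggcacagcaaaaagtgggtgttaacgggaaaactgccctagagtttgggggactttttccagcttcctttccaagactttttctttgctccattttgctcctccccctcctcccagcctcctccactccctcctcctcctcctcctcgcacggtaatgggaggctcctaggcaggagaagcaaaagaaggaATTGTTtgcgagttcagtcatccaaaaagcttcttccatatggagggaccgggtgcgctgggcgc
CDON: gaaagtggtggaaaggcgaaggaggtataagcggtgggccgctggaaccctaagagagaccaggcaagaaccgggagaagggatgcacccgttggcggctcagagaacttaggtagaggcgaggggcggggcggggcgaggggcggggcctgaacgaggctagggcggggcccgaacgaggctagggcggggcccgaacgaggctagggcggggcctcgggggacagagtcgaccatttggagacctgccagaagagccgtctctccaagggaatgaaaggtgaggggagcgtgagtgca
The PTCH1 window holds the GLI letters on the opposite strand, as TGGGTGGTC, beginning 172 bases before the start site, and it is 1 of 83 windows with this match among 35116 windows of all genes (0.236%). The BOC window holds AACAAT on the opposite strand, as ATTGTT, beginning 15 bases before the start site. The 3 CDON windows, the other 4 PTCH1 windows and the other BOC window hold none of the 3 motifs, which says only that these letters are not in them. Across the 15 windows, AACAAT was found in 2 (BOC and the second GLI2 window) and ACAAAG in 1 (SMO), and across all windows the shares were 10.1% and 16.1%. A match is a description of the letters, not evidence of binding.

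SOX2, the targeted gene, was examined first; here and below, values of single libraries follow the order of replicates 1 to 3. Counts of SOX2 were 8093, 6647 and 7396 in control libraries and 1564, 1776 and 1513 after SOX2 siRNA, a log2 fold change of -2.28 (SE 0.0437; adjusted p = 5.97e-16 by edgeR's quasi-likelihood test with Benjamini-Hochberg correction). Total counts ranged from 25152313 to 32753184 per library, and a two-sided exact permutation test between groups gave p = 0.5. With 3 libraries against 3 that test cannot give a p under 0.1, so it could not have reached 0.05. The floor for detection, taken as 3 counts, was 0.0909 to 0.120 CPM (each count divided by its TMM-scaled library total); such floors cover counting error only. Of 17592 genes tested, 28.2% had an adjusted p under 0.05, 14.8% higher and 13.4% lower after SOX2 siRNA. The cell type was checked against its markers: POU5F1, at 301 ± 18.6 CPM with control siRNA and 339 ± 12.96 CPM with SOX2 siRNA (SD, n = 3), LIN28A, LIN28B, SALL4, DNMT3B and PODXL were present, DPPA4 and L1TD1 were scarce at 3.05 and 1.79 CPM in control, and TDGF1 had at most 3 counts in any library. Of the 8 tested markers of this list 5 changed, with POU5F1, LIN28A, LIN28B and DNMT3B higher (log2 fold changes 0.17, 0.70, 0.59 and 0.40) and PODXL lower (-0.97); their part in the Hedgehog results was not tested.

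Of the 9 genes, 8 passed the filter on low counts. After SOX2 siRNA, CDON rose, and GLI3, BOC, PTCH1 and GLI2 fell; SMO and GLI1 did not pass the test and GAS1 was too scarce to be tested. The scarce HHIP was also called lower, but it passed the filter through its control libraries alone. Passing in this way favours genes that are higher in control, so HHIP is left out of the counts that follow. Of the 7 genes that reached the filter level in all libraries of both groups, 1 was higher and 4 were lower, where 14.8% of all tested genes were higher and 13.4% lower (15.6% and 14.0% of the 16001 genes that reached that level in both groups). Each of these changes was under 2-fold, from 1.65-fold higher for CDON to 0.759 of the control level for BOC. The median log2 fold change over the 7 genes was -0.20, against 0.0027 over the 16001 genes; these figures describe the 7 genes and carry no test. Among the 7 genes the groups overlapped in CPM for GLI1 alone, so SMO, which was not called, was separated too. Of all tested genes, 41.8% were separated in this way. In bulk RNA, fewer cells of a type and less RNA per cell cannot be told apart.

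**Figure D1:**
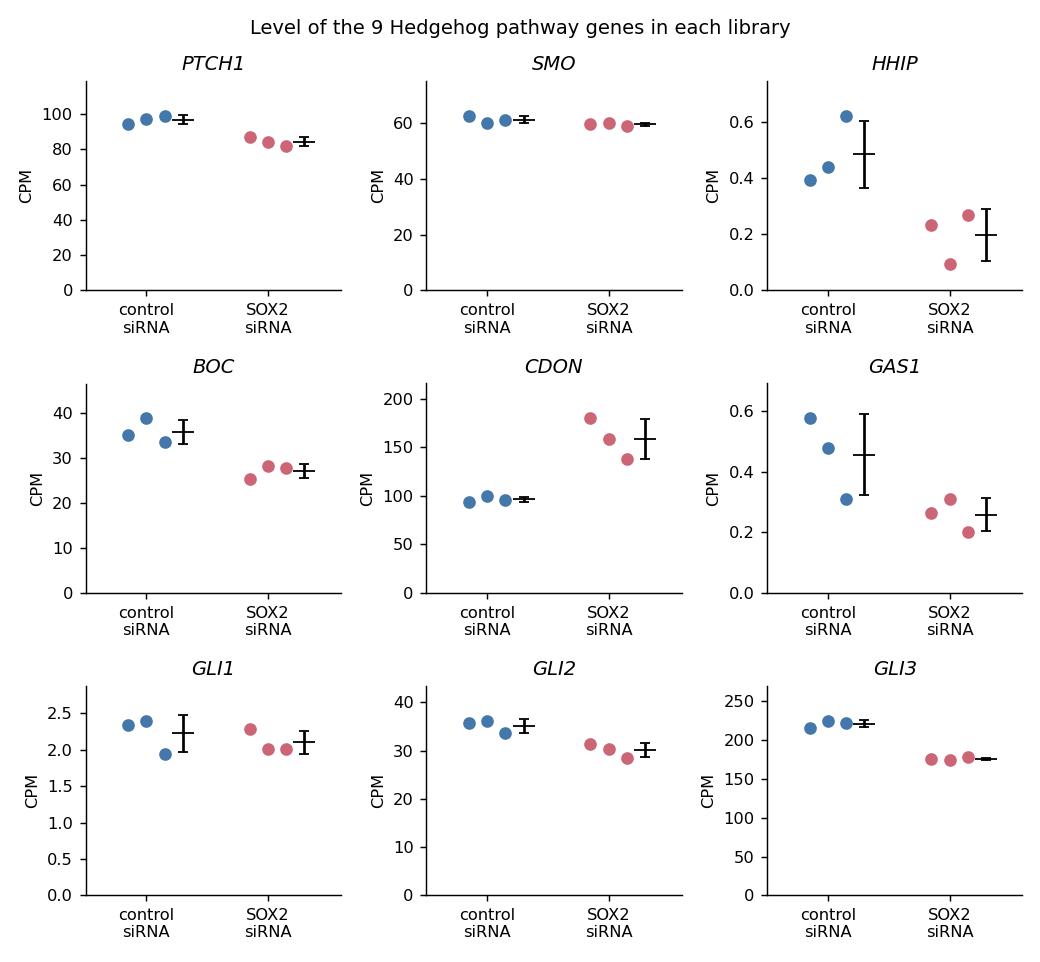
Level in CPM (vertical axis of each panel, from 0) of the 9 genes in 3 control siRNA libraries (blue) and 3 SOX2 siRNA libraries (red), with mean and SD beside the points. CDON lies at 93.5 to 99.3 CPM in control and at 138 to 180 CPM in SOX2 siRNA libraries, while GLI3, BOC, PTCH1 and GLI2 lie lower in each SOX2 siRNA library than in any control library. Groups were separated in this way, in either direction, for 41.8% of all tested genes.

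PTCH1, the receptor that binds the ligands and holds SMO inactive, lies on chromosome 9 (95442980 to 95517057, minus strand; gene positions are those of GENCODE 29 on GRCh38). It measured 94.3, 97.4 and 99.0 CPM in control libraries and 87.0, 84.1 and 81.9 CPM after SOX2 siRNA. The groups did not overlap, and the gap between the lowest control and the highest SOX2 siRNA library was wider than the range of either group. The log2 fold change was -0.20 (SE 0.0402; edgeR adjusted p = 0.00109), a small decrease. Exons of PTCH1 share 711 bases (4.29% of its exon length) with the antisense gene AL161729.1, which had 33 to 62 counts per library against 2440 to 3112 for PTCH1. The log2 fold change of AL161729.1 was 0.49 and did not pass the test (edgeR adjusted p = 0.0606).

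SMO, the transmembrane protein that carries the signal inward, lies on chromosome 7 (129188872 to 129213545, plus strand). Control libraries held 62.5, 60.2 and 60.9 CPM and SOX2 siRNA libraries 59.7, 60.1 and 59.0 CPM. The groups all but touched, at 60.2 CPM for the lowest control and 60.1 CPM for the highest SOX2 siRNA library. The log2 fold change of -0.04 had a 95% interval from -0.13 to 0.05 and did not pass the test (edgeR adjusted p = 0.540).

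HHIP, a membrane-bound protein that binds and sequesters the ligands, lies on chromosome 4 (144646021 to 144745271, plus strand) and was scarce. It had 13, 11 and 18 counts in control and 7, 3 and 8 counts after SOX2 siRNA, so that 1 SOX2 siRNA library was at the floor. The log2 fold change was -1.29 (95% interval -2.18 to -0.40; edgeR adjusted p = 0.0302). The call was lost with DESeq2's Wald test (-1.31, adjusted p = 0.162) and when control replicate 2 (-1.35, edgeR adjusted p = 0.0697), control replicate 3 (-1.07, 0.157) or SOX2 siRNA replicate 2 (-0.95, 0.161) was left out. Exons of HHIP share 178 bases (1.47% of its exon length) with its antisense partner HHIP-AS1. That gene had 6 to 18 counts per library, similar to HHIP itself. The log2 fold change of HHIP-AS1 was 0.0079 and did not pass the test (edgeR adjusted p = 0.992). The labels do not say whether counting used strand.

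CDON and BOC, immunoglobulin-domain co-receptors that bind the ligands and present them to PTCH1, moved in opposite directions. CDON lies on chromosome 11 (125955796 to 126063335, minus strand) and measured 93.5, 99.3 and 96.1 CPM in control and 179.6, 158 and 138 CPM after SOX2 siRNA. Every SOX2 siRNA library was above every control library, and the SOX2 siRNA libraries spread over a wider range than the controls (SD 20.7 against 2.93 CPM). The log2 fold change was 0.72 (SE 0.1004; 95% interval 0.47 to 0.97; edgeR adjusted p = 0.00395), a 1.65-fold rise, and 6.72% of tested genes had a larger change in either direction. Exons of CDON share 2831 bases (26.7% of its exon length) with the opposite-strand gene VSIG10L2, which had at most 4 counts in any library. The labels do not say whether counting used strand, and the part of these shared bases in the CDON counts was not tested.

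BOC lies on chromosome 3 (113211003 to 113287459, plus strand) and measured 35.1, 38.8 and 33.5 CPM in control and 25.4, 28.2 and 27.7 CPM after SOX2 siRNA. The groups did not overlap. The log2 fold change was -0.40 (SE 0.0618; edgeR adjusted p = 9.88e-05), which left 0.759 of the control level. CFAP44, whose exons share 513 bases (4.97%) with BOC on the other strand, had 527 to 675 counts per library and a log2 fold change of -0.19 that did not pass the test (edgeR adjusted p = 0.0568). As a share of the counts of both co-receptors, a measure chosen after the values were seen, CDON took 71.9% to 74.2% in control and 83.3% to 87.6% in SOX2 siRNA libraries. Both directions held in each of 15 alternative analyses, with CDON at 0.62 to 0.81 and BOC at -0.44 to -0.34 on the log2 scale.

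GAS1, a membrane-anchored co-receptor named for its rise in growth-arrested cells, lies on chromosome 9 (86944363 to 86947189, minus strand) and was close to the detection floor. It had 19, 12 and 9 counts in control and 8, 10 and 6 counts after SOX2 siRNA, which kept it out of the test. In CPM the groups were barely separated, at 0.311 for the lowest control and 0.309 for the highest SOX2 siRNA library. Without the filter its log2 fold change was -0.80 and did not pass (edgeR adjusted p = 0.260).

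**Figure D2:**
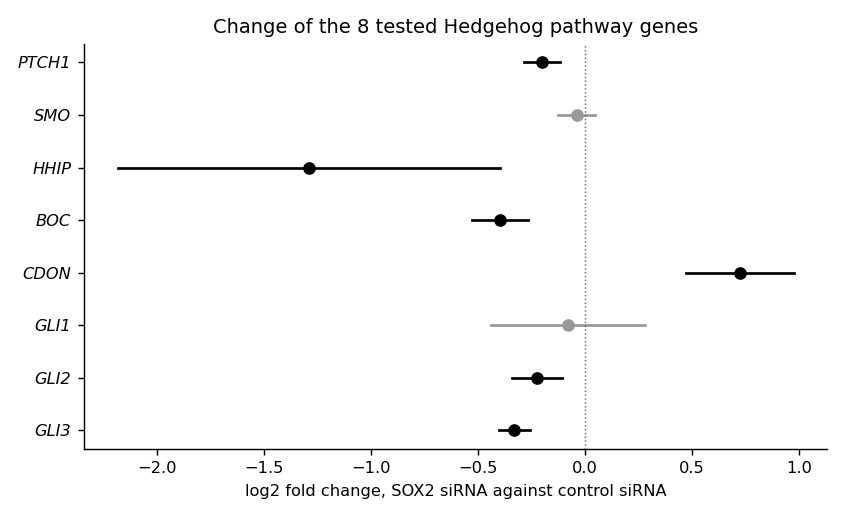
Log2 fold change of SOX2 siRNA against control siRNA (horizontal axis) for the 8 tested genes; points are estimates and lines 95% intervals from the edgeR fit, black where the adjusted p is under 0.05 and grey otherwise. CDON alone lies to the right of 0, at 0.72, and the interval of HHIP, from -2.18 to -0.40, is the widest.

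The 3 GLI genes encode the zinc finger transcription factors at the end of the pathway. GLI3 lies on chromosome 7 (41960950 to 42237870, minus strand) and measured 216, 225 and 223 CPM in control and 176, 175 and 178 CPM after SOX2 siRNA. The libraries of a group lay close together, and the groups were far apart in comparison. GLI3 had the smallest p of the 9 genes, with a log2 fold change of -0.33 (SE 0.0344; edgeR adjusted p = 1.07e-06), leaving 0.796 of the control level.

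GLI2 lies on chromosome 2 (120735623 to 120992653, plus strand) and measured 35.7, 36.2 and 33.6 CPM in control and 31.3, 30.4 and 28.5 CPM after SOX2 siRNA. The groups did not overlap. The log2 fold change was -0.22 (SE 0.0543; edgeR adjusted p = 0.00467). GLI1, on chromosome 12 (57460135 to 57472262, plus strand), is the member whose transcription is most often used as a readout of the pathway. It was scarce, with 77, 60 and 56 counts in control and 69, 65 and 60 counts after SOX2 siRNA, and the groups overlapped. Its log2 fold change of -0.08 had a 95% interval from -0.44 to 0.28 (edgeR adjusted p = 0.784), so a change of the size seen for GLI3, at -0.33, was within what these counts allow.

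Whether the GLI genes and PTCH1 moved by unequal amounts was examined through log2 ratios of CPM within each library, which do not depend on library scaling. GLI1 relative to GLI3 was -6.49, -6.51 and -6.80 in control and -6.22, -6.39 and -6.42 after SOX2 siRNA, a difference of 0.26. These groups did not overlap, and the exact two-sided permutation test gave p = 0.1, the smallest value that 3 against 3 libraries allow (0.3 after adjustment over the 3 ratios). GLI3 relative to GLI2 differed by -0.10 (exact permutation p = 0.3, adjusted 0.45) and PTCH1 relative to GLI1 by -0.13 (exact permutation p = 0.5, adjusted 0.5), both with overlapping groups.

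Levels were compared between genes as CPM per kb of merged exon length. In control libraries GLI3 was highest at 20.2 ± 0.414 CPM per kb, followed by SMO at 14.2 ± 0.279, CDON at 9.08 ± 0.277, PTCH1 at 5.84 ± 0.145, GLI2 at 4.79 ± 0.190 and BOC at 3.46 ± 0.264 (SD, n = 3). GLI1 was far lower at 0.528 ± 0.0591 CPM per kb, and GAS1 and HHIP lower still at 0.161 ± 0.0473 and 0.0402 ± 0.01003 CPM per kb. No neighbouring pair in this order overlapped between control libraries. In SOX2 siRNA libraries CDON, at 14.98 ± 1.95 CPM per kb, overlapped both GLI3 (16.1 ± 0.148) and SMO (13.8 ± 0.128). The middle of the order depends on the length used: per kb of the longest coding transcript, a choice made after the data were seen, control PTCH1 (11.8) came before CDON (10.5) and BOC (7.70) before GLI2 (5.17), while GLI3 and SMO stayed first and second.

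**Figure D3:**
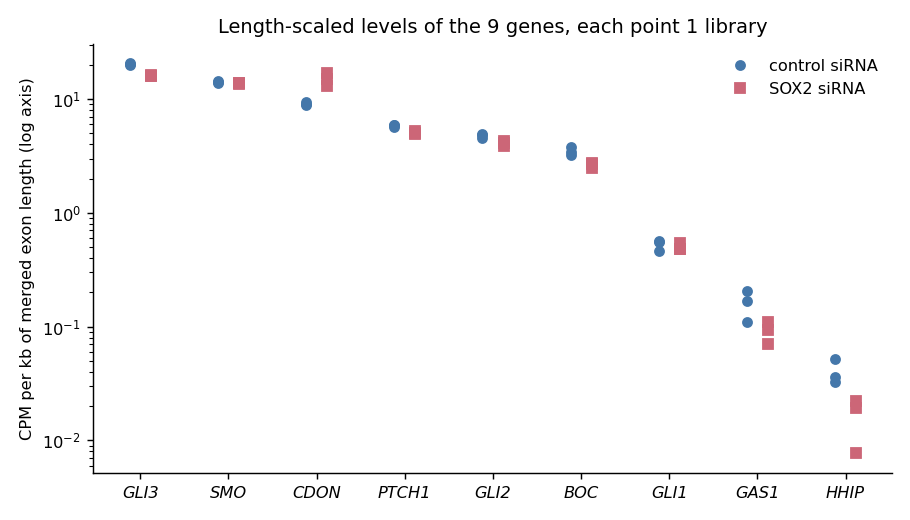
CPM per kb of merged exon length (vertical axis, log scale) for the 9 genes, ordered by their mean in control libraries; each point is 1 library, blue circles for control siRNA and red squares for SOX2 siRNA. GLI3 and SMO lie highest among controls, at 20.2 and 14.2 CPM per kb, and GLI1, GAS1 and HHIP lie under 1 CPM per kb in all libraries.

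The genes whose log2 CPM followed that of a changed member most closely over the 6 libraries were listed as a description, among the 12120 genes whose average log2 CPM was 2 or more. The points share the difference between groups, so high values are common. For GLI3 they were RBM24, encoding an RNA-binding protein, and PTPRZ1, a receptor-type tyrosine phosphatase of neural progenitors (Pearson r of 0.999 for both). For PTCH1 they were ZDBF2 and MIGA1 (0.999 for both), for GLI2 CDK18 (0.994) and AHCYL2 (0.993), for BOC AC022150.4 (0.998) and KLRA1P (0.997), and for CDON ZSCAN2 and SPN (0.999 for both). For HHIP, whose counts are few, they were PUS3 (0.986) and ALG6 (0.985).

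The other genes of the pathway were followed through lists written from general knowledge, with earlier results of these data known. Among 10 genes of the ligands and their release, the ligand genes were scarce: DHH had 17 to 27 counts per library and a log2 fold change of -0.06 that did not pass the test (edgeR adjusted p = 0.911), and IHH had 2 to 7 counts per library. SHH had 3, 0 and 3 counts in control and 10, 1 and 13 counts after SOX2 siRNA, so the groups overlapped and the gene was not tested. The libraries with most SHH, SOX2 siRNA replicates 1 and 3, also held more EPCAM, an epithelial surface protein (107 and 63 counts, against 20 in replicate 2), and more FOXA2, a transcription factor of endoderm and floor plate (13 and 9 counts, against 1). FOXA2 is also in the list of GLI target genes described below, and it was too scarce to be tested. The other epithelium markers summed below did not all follow EPCAM. Among SOX2 siRNA libraries, KRT19 was high in replicate 1 only (3.05 CPM, against 0.928 and 0.736 CPM in replicates 2 and 3). CDH1 stood at 1.56 CPM in replicate 1 and at 1.27 CPM in both others. KRT8 (317 and 328 CPM) and KRT18 (179.6 and 180.3 CPM) were slightly higher in replicates 1 and 3. Replicate 2 held 304 and 169.7 CPM of them. Control replicate 1 held 123 counts of EPCAM and 13 of FOXA2 with 3 of SHH. Whether other cells or their RNA gave part of the SHH counts was not tested.

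Of the 8 tested genes of this group 3 changed (37.5%, beside 28.2% of all tested genes), 1 higher and 2 lower. DISP1, the transporter that releases lipid-modified ligand from the producing cell, measured 28.9, 30.2 and 30.9 CPM in control and 57.8, 61.5 and 60.3 CPM after SOX2 siRNA. All SOX2 siRNA libraries lay near a doubling, with a log2 fold change of 0.999 (SE 0.0483; edgeR adjusted p = 4.82e-11); exons of DISP1 share 402 bases with a same-strand lincRNA, AC093152.1. The secreted carriers SCUBE2 and SCUBE3, which take up ligand released by DISP1, fell, from 4.36 ± 0.384 to 2.36 ± 0.457 CPM and from 16.5 ± 0.508 to 10.8 ± 0.598 CPM (SD, n = 3; log2 fold changes -0.88 and -0.62; edgeR adjusted p = 4.25e-04 and 3.88e-06). The median log2 fold change of the 8 genes was -0.06.

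All 37 genes listed for signal transduction between SMO and the GLI proteins were tested, and 12 changed (32.4%, beside 28.2% of all tested genes), 7 higher and 5 lower. GPR161, a ciliary receptor that restrains the pathway through protein kinase A, rose from 28.3 ± 2.26 to 42.7 ± 0.933 CPM (SD, n = 3; a log2 change of 0.60; edgeR adjusted p = 3.77e-07). SPOP, the ubiquitin ligase adaptor that directs GLI2 and GLI3 to degradation, rose by 0.36 on the log2 scale (edgeR adjusted p = 7.27e-05). GNAS and ARRB1, encoding a stimulatory G protein subunit and a beta-arrestin, rose by 0.15 and 0.24. SUFU and KIF7, the core regulators that hold GLI proteins in the cytoplasm and at the cilium tip, had log2 fold changes of 0.07 and 0.0035 that did not pass the test (edgeR adjusted p = 0.327 and 0.982). The median over the list was 0.02, and the number of changed genes fell to 7 without SOX2 siRNA replicate 2 (18.9% of the list, beside 20.9% of all genes tested in that fit).

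For the primary cilium and its transport machinery, 15 of 42 genes changed (35.7%, beside 28.2% of all tested genes), 6 higher and 9 lower, with a median log2 fold change of -0.03. IFT57, a subunit of the transport train that moves cargo out along the cilium, rose from 43.1 ± 1.85 to 68.7 ± 3.59 CPM (SD, n = 3; a log2 change of 0.67; edgeR adjusted p = 1.53e-08). CC2D2A, a transition zone protein, KIF3A, a motor subunit of the outward train, and BBS4, a subunit of the BBSome, fell by 0.30, 0.26 and 0.18 on the log2 scale. Most of these changes were small, and the count depended on single libraries. It was 3 without control replicate 2 (7.14% of the list, beside 21.2% of all genes tested in the same fit), 6 without SOX2 siRNA replicate 2 (14.3% beside 20.9%) and 8 with DESeq2's Wald test (19.0% beside 22.3%), so the share of the list lay above that of all genes in the full fit and below it in these 3.

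Among 32 genes listed as targets of GLI proteins or of Hedgehog signalling in other tissues, 21 were tested and 14 changed (66.7%, beside 28.2% of all tested genes), 10 higher and 4 lower (14.8% and 13.4% of all tested genes), with a median log2 fold change of 0.14; 5 of the list had at most 3 counts in every library. NR2F1, a nuclear receptor of the developing nervous system, rose from 89.8 ± 3.36 to 154.5 ± 8.82 CPM (SD, n = 3; a log2 change of 0.78; edgeR adjusted p = 5.19e-10), and PRDM1, a transcriptional repressor, rose by 0.56. SFRP1, a secreted Wnt antagonist, and NKX6-1, a homeobox gene of the ventral neural tube, fell by 0.54 and 0.67. These genes are also controlled by other pathways, and the part of Hedgehog signalling in their changes was not tested.

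Of 22 relatives of the 9 genes and other proteins that bind the ligands, 17 were tested and 6 changed (35.3%, near the 28.2% of all tested genes), 5 higher and 1 lower, with a median log2 fold change of 0.0079. GLIS3, a zinc finger relative of the GLI proteins, is 1 of the 5; it had 11, 4 and 8 counts in control and 12, 24 and 23 counts after SOX2 siRNA, so it passed the filter only through the group where it was high. Among the 15 genes that reached the filter level in all libraries of both groups, 5 changed (33.3%, beside 29.6% of all genes so filtered). LRP2, the large endocytic receptor that binds SHH in the forebrain, had the largest change of this list, at 11.97, 13.4 and 12.8 CPM in control and 32.4, 34.4 and 34.2 CPM after SOX2 siRNA. The groups were far apart (log2 fold change 1.41, SE 0.0617; edgeR adjusted p = 1.37e-11). GPC4, a glypican of the cell surface, and HHIPL2, a secreted relative of HHIP, rose by 0.37 and 0.33 on the log2 scale. FZD7, a Wnt receptor of the same receptor class as SMO, fell by 0.37 (edgeR adjusted p = 2.30e-07).

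**Figure D4:**
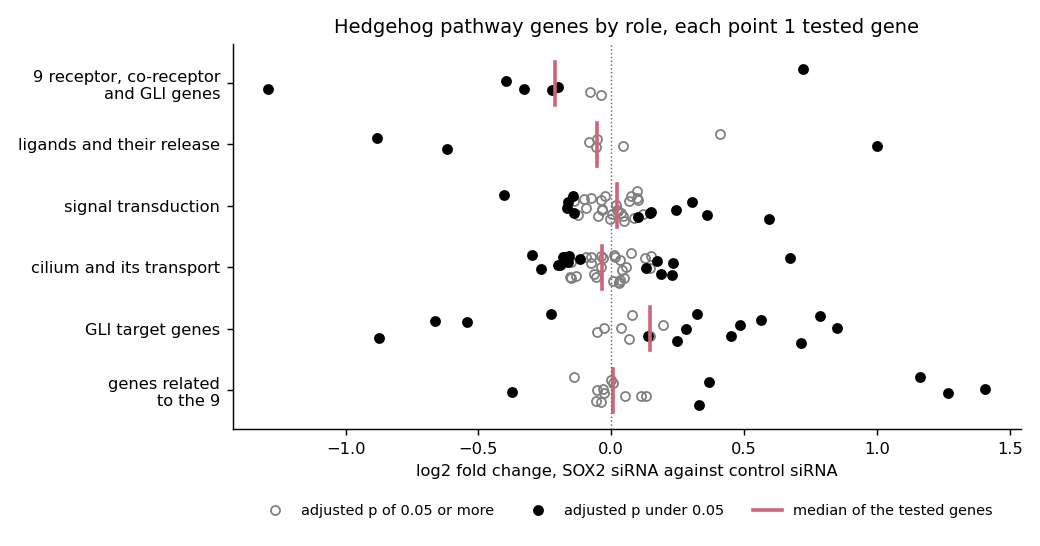
Log2 fold change of SOX2 siRNA against control siRNA (horizontal axis) for each tested gene of the 9 and of 5 wider lists; filled points have an adjusted p under 0.05, open points do not, and red bars are medians. Signal transduction and cilium genes crowd around 0 with medians of 0.02 and -0.03, while DISP1 at 0.999 and LRP2 at 1.41 lie far to the right in their lists.

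Some markers of other cell types differed between the groups, as did some of teratocarcinoma cells, and their part in the Hedgehog results was not tested. Summed over 5 neural markers the level was 806 to 827 CPM in control and 563 to 575 CPM in SOX2 siRNA libraries. NES, which was lower, made up most of this sum, at 780 CPM in control and 517 CPM after SOX2 siRNA. TUBB3 was higher, PAX6 and GFAP did not pass the test, and OLIG2 had 0 counts. All 4 endothelium markers were called lower, as were 13.4% of all tested genes, with sums of 112 to 116 against 83.3 to 86.7 CPM. Sums of 6 fibroblast or stroma markers were 403 to 453 against 518 to 559 CPM, with 3 of the 5 tested called higher. Sums of 5 epithelium markers were 345 to 389 against 477 to 512 CPM, with 2 of the 5 tested called higher. Of all tested genes, 14.8% were called higher. KRT8 and KRT18, the 2 called, made up most of the epithelium sums, while EPCAM, KRT19 and CDH1 did not pass the test. The 5 blood markers summed to 0.519 to 1.11 and 0.431 to 0.870 CPM, with HBB at 0 counts.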

How the data were processed

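Trizol-extracted RNA of PA1 cells was turned into mRNA libraries with the KAPA mRNA HyperPrep kit, per the labels' protocols. The authors deposited 1 table of raw read counts per gene symbol, with 1 column per library; its values are whole numbers with unequal totals. The submitters' processing notes name bcl2fastq 2.20.0, STAR 2.7.3a, Salmon 0.14.1, DESeq2 1.28.1 and build GRCh38.p13, without roles; annotation, strand use and the step that gave whole numbers are not given in the sources used here. Columns were matched to libraries by the identifier in each description and groups taken from the titles.

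Counts were tested with edgeR 4.0.16 in R 4.3.3 (filterByExpr at a minimum count of 10, TMM scaling, and the quasi-likelihood F-test of group with robust=TRUE). Adjusted p-values are Benjamini-Hochberg values over the 17592 genes tested, read at 0.05, and come from this fit unless another tool is named. Standard errors are the log2 fold change divided by the root of F. Ratios within libraries used log2 CPM with a prior count of 2 and exact permutation tests. Alternatives were 3 other scalings, 2 other filters, DESeq2 1.42.0, limma-voom (limma 3.58.1), robust=FALSE, each library left out and a replicate block. Lengths, positions and exon overlaps came from GENCODE 29, which need not be the authors' annotation, and figures were drawn with matplotlib 3.10.9. The procedure was tested on simulated counts whose spread depended on level alone, which does not cover a gene of wider spread such as CDON.

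The 9 genes, the lists and the rule for named genes (all 9; up to 4 changed genes per list by smallest p; the 2 closest genes per changed member) were chosen with earlier results of these data known. Named outside this rule after their values were seen were SHH, IHH, DHH, EPCAM, FOXA2, SUFU, KIF7, GLIS3, the markers and the overlapping genes. Values of 1 listed gene are not reported here. No library was left out, and read counts without molecular identifiers are not independent molecules.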

Additional observations from a re-analysis of the deposited data

How the results depend on the processing

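The direction of SOX2, PTCH1, SMO, GLI1, GLI2, GLI3, BOC and CDON and their side of the threshold held in all 15 alternatives run for each, and HHIP was negative in its 14. Log2 fold changes ranged from -0.23 to -0.18 for PTCH1, -0.26 to -0.19 for GLI2, -0.35 to -0.32 for GLI3, -0.06 to -0.02 for SMO and -0.17 to -0.03 for GLI1. HHIP lost its call with DESeq2's Wald test (-1.31) and without each of 3 libraries in turn (-1.57 to -0.95 over the 6 fits that leave 1 out); a filter of 10 counts in every library left it untested. Over the same 6 fits the changed genes for signal transduction numbered 7 to 12 (18.9% to 32.4% of the list) and those for the cilium 3 to 16 (7.14% to 38.1%). The share of all tested genes called ran from 20.9% to 27.1% over these fits. DESeq2's Wald test gave 8 for the cilium (19.0%, beside 22.3% of all tested genes). The cause of these shifts was not tested. The number of genes called over the whole table ranged from 3760 (without SOX2 siRNA replicate 2) to 5212 (no filter beyond 1 count). Of 465 values of the 31 other genes named by the rule, 6 lost their call (BBS4 and ALG6) and none reversed. Genes named outside the rule were not followed singly through the alternatives. Ratios within libraries kept their sign in 8 alternatives each, from 0.16 to 0.31 for GLI1 against GLI3. Depth limits HHIP, GAS1, GLI1 and the ligand genes.

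Both groups carry replicate numbers 1 to 3, but same-numbered libraries did not deviate together (correlations across genes 0.0868, -0.0377 and -0.0311, against -0.120 to 0.155 for different numbers), and not every library correlated best with its own number. The replicate block gave 5177 calls in place of 4964, changed no call among the 9 genes, and left CDON at 0.72 (edgeR adjusted p = 0.0176) and SOX2 at -2.28.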
